A study of Mus musculus with 20 samples.

Results

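The genes described here are 10 serotonin receptors, Htr1a, Htr1b, Htr2a, Htr2c, Htr3a, Htr4, Htr5a, Htr5b, Htr6 and Htr7, followed in single wells of the mouse habenula, a small epithalamic nucleus with a medial and a lateral division. They were taken by symbol from the tables of total transcripts, and all 10 had a row among the 37994 genes of the developmental series and among the 36104 genes of the left and right set. The developmental series came from mice of the Brn3a-tauLacZ line (Brn3a is an older name of Pou4f1) and covered E11, E12, E13, E15, E18, P4, P7 and adult, with 2 plates of 384 wells a stage except for the single plate at E12. The left and right set was taken at E18 from C57BL/6 mice and consisted of 2 left plates, 2 right plates and 1 plate with both sides together, whose title gives E1 while its other labels give E18. The genotype at the reporter locus, the sex, the adult age, the number of animals behind a plate and any sorting gate were not stated in the labels used. The plate was the replicate, and since no label says that plates came from separate animals, p-values measure the spread between plates only.

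Serotonin reaches the forebrain from neurons of the raphe nuclei, and the lateral habenula in turn is known to act on the raphe, so its serotonin receptors sit in a loop with the source of their ligand. The receptors signal in different ways: those of the Htr1 and Htr5 types couple to the inhibitory G proteins Gi and Go and lower cyclic AMP, those of the Htr2 type couple to Gq and phospholipase C, and Htr4, Htr6 and Htr7 couple to the stimulatory G protein Gs and raise cyclic AMP. Htr3a encodes a subunit of the only serotonin receptor that is an ion channel.

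The promoters of the tested receptors with an entry in the RefSeq promoter table (GRCm38.p6) are shown because these receptors took different courses across the stages. Of the 10 receptors, 7 had an entry. Each sequence runs from 250 bases before to 50 bases after the annotated start, 5′ to 3′ on the gene's strand, with the 6-letter motifs TAATTA (the core read by many homeodomain proteins) and CANNTG (the E-box read by basic helix-loop-helix proteins) in capitals where a search of both strands found them. The promoter of Htr5a lies at chr5:27841697-27841996 on the plus strand, that of Htr7 at chr19:36057311-36057610 on the minus strand, that of Htr2a at chr14:74640624-74640923 on the plus strand and that of Htr2c at chrX:146962263-146962562 on the plus strand.
Htr5a: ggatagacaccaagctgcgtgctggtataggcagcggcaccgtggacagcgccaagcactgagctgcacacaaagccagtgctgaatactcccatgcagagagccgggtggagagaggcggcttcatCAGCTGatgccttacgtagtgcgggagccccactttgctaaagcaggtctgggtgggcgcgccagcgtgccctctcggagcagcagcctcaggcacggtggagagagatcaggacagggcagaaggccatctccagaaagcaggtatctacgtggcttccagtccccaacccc
Htr7: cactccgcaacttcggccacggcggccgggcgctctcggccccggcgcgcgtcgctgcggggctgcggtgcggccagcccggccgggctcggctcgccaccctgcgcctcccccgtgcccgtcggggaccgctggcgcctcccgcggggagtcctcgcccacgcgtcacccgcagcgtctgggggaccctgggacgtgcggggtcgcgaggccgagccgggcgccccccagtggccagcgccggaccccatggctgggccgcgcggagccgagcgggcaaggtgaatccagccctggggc
Htr2a: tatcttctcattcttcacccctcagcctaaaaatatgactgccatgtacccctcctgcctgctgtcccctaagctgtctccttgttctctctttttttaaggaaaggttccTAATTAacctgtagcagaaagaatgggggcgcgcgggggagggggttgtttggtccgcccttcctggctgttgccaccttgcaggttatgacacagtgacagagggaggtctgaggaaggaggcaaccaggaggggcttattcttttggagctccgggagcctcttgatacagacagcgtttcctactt
Htr2c: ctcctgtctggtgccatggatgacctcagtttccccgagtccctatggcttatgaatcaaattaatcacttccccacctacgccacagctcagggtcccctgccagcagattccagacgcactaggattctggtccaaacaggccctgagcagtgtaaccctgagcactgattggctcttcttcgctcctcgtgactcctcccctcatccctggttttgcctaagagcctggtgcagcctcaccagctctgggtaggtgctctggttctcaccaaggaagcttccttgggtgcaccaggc
Htr5a had 1 match to CANNTG and Htr2a 1 match to TAATTA, and the other searches of these 4 sequences found none. Of 32851 promoters of the same length, 72.3% held CANNTG and 5.29% held TAATTA, so the E-box match is a common one. The Htr7 promoter had a GC content of 81.0%, against a median of 52.7% over all promoters, 61.3% for Htr5a, 56.3% for Htr2c and 52.0% for Htr2a.

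A well was kept when it had at least 1000 unique molecular identifiers (UMIs, each standing for 1 captured transcript), 500 or more genes and no more than 20% of UMIs from mitochondrial genes, leaving 3729 of 5756 wells in the series and 1082 of 1920 in the left and right set. Summed counts per plate ran from 758697 to 7760372 in the series and from 1849863 to 6586449 in the other set. Some plates stood apart. Pou4f1, a habenula neuron marker, was seen in 51.1% of kept wells on E13 plate 2 and in 28.1% on E18 plate 1, against at least 71.2% on the other embryonic and P4 and P7 plates of the series and 37.5% and 52.6% on the adult plates. On E13 plate 2 the summed level of 9 choroid plexus markers was 4129 CPM (a gene's share of all counts in the kept wells of a plate, scaled to a total of 1000000), with 8 of the 9 detected. Adult plate 1 kept only 56 wells, with a median of 11.9% mitochondrial UMIs. The 8 oligodendrocyte markers summed to 9861 and 2671 CPM on the adult plates and to 152 and 130 CPM at P7. The erythroid markers summed to 19048 and 17219 CPM on the left plates and to 3410 and 265 CPM on the right plates.

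Over the 15 series plates, the kept wells held 2068 UMIs of Htr4, 1581 of Htr2c, 836 of Htr5b, 625 of Htr2a, 545 of Htr7, 473 of Htr5a and 126 of Htr3a, but only 20 of Htr1b, 9 of Htr1a and 7 of Htr6. On the embryonic series plates, from 8.51% to 26.3% of kept wells had a UMI of any of the 10 receptors. The share was 62.4% and 64.3% on the P4 plates, 72.7% and 69.4% on the P7 plates, 50.0% and 55.6% on the adult plates, and between 48.6% and 55.6% on the 5 plates of the left and right set. Here and below, shares of kept wells are not corrected for depth unless an equal depth is named. The median kept well of a plate held 5045.5 to 23052 UMIs in the series and 17093 to 28407 in the other set. Wells that failed the filters held 34 UMIs of Htr2c over the whole series and at most 7 of any other of the 10 receptors.

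**Figure D1:**
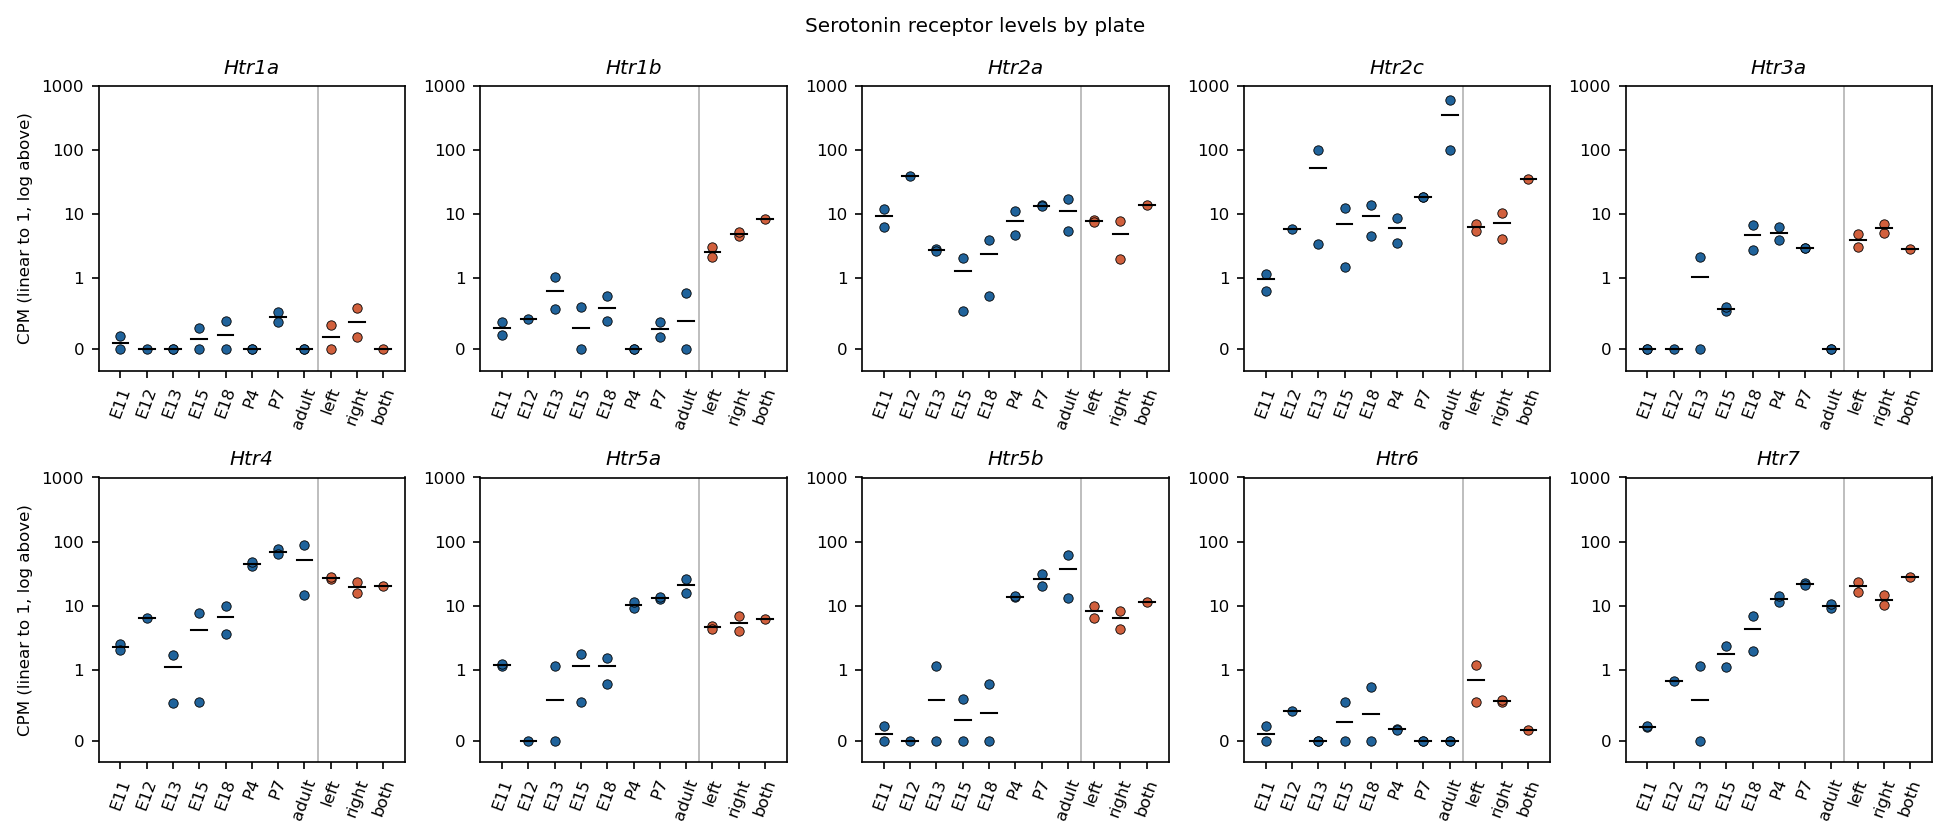
Level of each receptor on each plate in CPM (vertical axis, linear from 0 to 1 and logarithmic above). Each point is 1 plate and each bar the mean of a group; blue points are the developmental series, orange points the C57BL/6 plates at E18. Htr4, Htr5a, Htr5b and Htr7 lay higher on the P4, P7 and adult plates than on the E11 to E15 plates, and Htr1a and Htr6 stayed near 0.

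Changes between stages were tested with edgeR on summed counts, with p-values adjusted over 17453 genes. Of the 10 receptors, 7 passed the filter on low counts (Htr2a, Htr2c, Htr3a, Htr4, Htr5a, Htr5b and Htr7). A gene passes that filter through the stages where it is high, so the counts over these 7 describe them and are not used as support for anything else. The step from E18 to P4 held the receptor changes between neighbouring stages: 3 of the 7 rose and none fell, where 19.6% of all genes tested changed, 9.2% upward and 10.4% downward. The median log2 change of the 7 over that step was 1.86, against -0.07 over all genes tested. From E11 to P7, the longest span without an adult plate, 5 of the 7 rose and none fell, where 28.6% of all genes tested changed, 15.4% upward and 13.2% downward. No receptor passed between E11 and E13 (1.45% of genes passed), E13 and E15 (0.0917%, of which 0.0516% upward and 0.0401% downward), E15 and E18 (0.195%, of which 0.16% upward and 0.0344% downward), P4 and P7 (0.00573%) or P7 and adult (3.58%, of which 1.76% upward and 1.82% downward). At an unadjusted p under 0.05, edgeR had 3 of the 7 over the first of these steps (Htr2a, Htr2c and Htr3a), 1 over the next (Htr2c), 1 from E15 to E18 (Htr3a), 0 from P4 to P7 and 2 from P7 to adult (Htr2c and Htr3a). Over all 17453 genes, 3098, 2183, 3009, 475 and 3607 had an unadjusted p under 0.05 over the same steps. DESeq2 called 1 from E11 to E13 and 1 from P7 to adult, Htr2c both times, and 0 over the other 3, where it called 932 and 1411 of the 17453 genes over the first and last of these steps and 445, 665 and 22 over the others. The level of a plate does not tell fewer positive wells from less RNA per well, so the share of positive wells is given beside it.

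Among the receptors that couple to Gi and Go, Htr5b (chr1:121509842-121528465 on the minus strand, GENCODE M21 on GRCm38) had the largest ratio between late and early plates. Its level was 0 and 0.204 CPM at E11, 0 at E12, 1.14 and 0 at E13, 0 and 0.594 at E15, and 0.798 and 0 at E18. It was then 13.6 and 14.0 CPM at P4, 20.2 and 31.3 at P7, then 13.2 and 62.3 on the adult plates. Within the series, every plate from P4 onward lay above every earlier plate, with no overlap. Several earlier plates were at 0, where the limit of 3 counts was as high as 2.26 CPM (E18 plate 2). Htr5b rose from E18 to P4 by 4.91 ± 1.09 (log2, SE; edgeR adjusted p = 0.0118), from 2 UMIs at E18 to 171 at P4, a ratio of 26.4 with a counting interval from 7.20 to 220. From E11 to P7 it rose by 7.66 ± 1.11 (edgeR adjusted p = 0.000632), with 1 UMI at E11 against 335 at P7, a ratio of 251 with an interval from 44.7 to 9940. The share of kept wells with an Htr5b UMI was at most 1.31% on any embryonic series plate, 14.6% and 15.5% at P4, 24.2% and 26.2% at P7, then 14.3% and 30.4% on the adult plates.

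Htr5a, the other receptor of the Htr5 type, followed a similar course. Its level was 1.16 and 1.23 CPM at E11, 0 at E12, 1.14 and 0 at E13, 0.543 and 1.78 at E15, and 0.798 and 1.51 at E18. It was 9.33 and 11.3 CPM at P4, 12.5 and 13.7 at P7, then 15.8 and 26.2 on the adult plates. All 6 series plates from P4 onward lay above all 9 earlier ones of the series. Htr5a rose from E18 to P4 by 3.47 ± 0.73 (log2, SE; edgeR adjusted p = 0.00984) and from E11 to P7 by 3.47 ± 0.62 (edgeR adjusted p = 0.00219). It was spread thinly over wells: it was in 23.3% and 18.0% of wells at P7 with 1.28 and 1.47 UMIs per positive well, and no well outside the adult plates held more than 4.

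Htr1b and Htr1a, the classical inhibitory serotonin receptors of axon terminals and cell bodies, were rare. Htr1b was at or below 1.06 CPM on all 15 series plates, with 20 UMIs in all. In the C57BL/6 set at E18 it was at 3.04 and 2.16 CPM on the left plates, 4.52 and 5.19 on the right plates and 8.35 where both sides were together, with 120 UMIs in 58 wells. All 5 of these plates lay above all 15 series plates, whose mouse line and tables also differ, so line, set and level cannot be told apart. Htr1a was at or below 0.577 CPM on all 20 plates, with 14 UMIs over both sets. Both genes failed the filter of the series test, and Htr1b entered only the left and right test. Htr1b overlaps the gene D430036J16Rik on the other strand, as Htr5b overlaps Gm8217 and Htr3a overlaps Gm32335, and whether counting used strand is not given, so the counts of these 3 receptors could include reads of the partner.

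Of the receptors that couple to Gq, Htr2a had its highest level at an early stage. Its level was 6.38 and 12.1 CPM at E11, 39.4 at E12, 2.84 and 2.66 at E13, 0.543 and 2.08 at E15, and 3.99 and 0.753 at E18. It was 11.0 and 4.75 CPM at P4, 13.7 and 13.2 at P7, then 17.1 and 5.37 on the adult plates. Within the series, the E12 plate stood above every other plate, and the E13 to E18 plates lay below all others. On the C57BL/6 plates at E18, Htr2a was at 8.11 and 7.57 CPM (left), 7.78 and 2.02 (right) and 13.7 (both sides), so these overlapped the P4, P7 and adult range. On the E12 plate Htr2a was in 61 of 291 wells (21.0%), with 187 UMIs, at most 16 in a well, so the level was not the work of a few wells. E12 had a single plate and entered no test. From E18 to P4 Htr2a differed by 1.80 ± 0.78 (log2, SE; edgeR adjusted p = 0.120) and from E11 to P7 by 0.59 ± 0.65 (edgeR adjusted p = 0.526), so neither passed. Within wells that had a Pou4f1 UMI, the step from E18 to P4 passed, with a fitted difference of 4.08 (edgeR adjusted p = 0.0393). On E18 plate 1, at the equal depth described below, Htr2a was in 0% of wells with and 1.74% of wells without Pou4f1. E18 plate 2 had only 1 Htr2a-positive well among all its kept wells. The E18 side of this fit was therefore at or near 0, and the size of the change is uncertain.

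Htr2c, known for its high expression in the choroid plexus, differed widely between plates of the same stage. Its level was 1.16 and 0.817 CPM at E11, 5.91 at E12, 3.41 and 100.1 at E13, 12.5 and 1.49 at E15, and 14.0 and 4.52 at E18. It was 8.83 and 3.53 CPM at P4, 18.3 and 18.3 at P7, then 612.2 and 101.5 on the adult plates. E13 plate 2 and both adult plates stood apart from the rest. On adult plate 1 a single well held 312 of the 451 Htr2c UMIs (69.2%) and the next 89, while on adult plate 2 the signal was spread over 59 wells, of which the highest held 15.4% of 508 UMIs.

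Where choroid plexus wells were present, they held much of the early Htr2c signal. A choroid well was one with at least 1% of its UMIs from the choroid plexus list. E13 plate 2 had 8 such wells among 137, all 8 positive for Htr2c, and they held 148 of its 188 Htr2c UMIs (78.7%). A single choroid well held 24 of the 28 UMIs on the E12 plate and another held 13 of the 23 on E15 plate 1, 2 of the 4 on E18 plate 1 held 10 of its 35, and 1 of the 2 on the plate of both sides held 130 of its 228. The P4, P7 and adult plates had 0 choroid wells, and Ttr, the transthyretin gene that defines that tissue, was at 0 in their Htr2c-positive wells. The summed neuron markers were higher in Htr2c-positive wells than in the others on 6 of 6 P4, P7 and adult plates, by 1.06-fold to 2.14-fold.

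Htr2c passed no stage comparison in the main edgeR fit, while DESeq2 called it from E11 to E13, from P7 to adult and from E11 to P7. Some other edgeR settings called it as well, as given in the closing section. From P7 to adult it differed by 4.14 ± 1.15 (log2, SE; edgeR adjusted p = 0.0723), from E11 to E13 by 5.49 ± 1.49 (edgeR adjusted p = 0.0935) and from E11 to P7 by 4.21 ± 1.49 (edgeR adjusted p = 0.0538). These values depended on the plates and wells included. Without choroid wells the difference from E11 to E13 was 3.49 (edgeR adjusted p = 0.167). Without E13 plate 2 the difference from E11 to E13 was 1.61 (edgeR adjusted p = 0.875), and without E13 plate 1 it was 6.34 (adjusted p = 0.0237). Without adult plate 1 the difference from P7 to adult was 2.33 (edgeR adjusted p = 0.431), and without adult plate 2 it was 5.01 (adjusted p = 0.0318). The Htr2c gene also holds Snora35, Mir764, Mir1912, Mir1264, Mir1298 and Mir448 on its own strand, and 61.9% of its series UMIs were unspliced.

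Htr3a, the channel subunit (chr9:48899213-48911099 on the minus strand, GENCODE M21 on GRCm38), was seen only in a window of stages. It had 0 UMIs on both E11 plates, on the E12 plate and on E13 plate 1, then 2.12 CPM on E13 plate 2, 0.543 and 0.594 at E15, 2.79 and 6.78 at E18, 6.28 and 3.99 at P4, and 2.96 and 2.99 at P7. On the adult plates it was again at 0, where 3 counts would be 3.95 and 0.596 CPM. Within the series, the E18, P4 and P7 plates all lay above the earlier plates and above adult plate 2. The limit on adult plate 1 lay within their range, so that plate cannot be ranked against them. Against the limit of 3 counts over the E11 plates, Htr3a was at least 9.99-fold higher at P7 (edgeR adjusted p = 0.00953), and the call was lost without either E11 plate (adjusted p = 0.0651 and 0.0623). The fall after P7 was at least 5.74-fold against the same limit over the adult plates, from 40 UMIs to 0, but did not pass (edgeR adjusted p = 0.0752). Pou4f1-positive wells were fewer and oligodendrocyte markers higher on both adult plates, as given above, and in Pou4f1-positive wells alone the adjusted p of Htr3a was 0.0692. Htr3a wells were few, 70 in the series, with at most 6 UMIs in a well.

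Htr4, a Gs-coupled receptor, was in more wells than any other member from P4 on, apart from adult plate 1. Its level was 2.51 and 2.04 CPM at E11, 6.32 at E12, 1.70 and 0.531 at E13, 0.543 and 7.73 at E15, and 3.59 and 9.80 at E18. It was 41.1 and 47.7 CPM at P4, 76.5 and 63.2 at P7, then 14.5 and 88.7 on the adult plates. Within the series, the P4, P7 and adult plates all lay above the earlier plates, and the adult plates lay on either side of the P4 and P7 range. Htr4 rose from E18 to P4 by 3.07 ± 0.84 (log2, SE; edgeR adjusted p = 0.0283) and from E11 to P7 by 4.97 ± 0.85 (edgeR adjusted p = 0.00172). Both the share of wells and the UMIs per positive well were higher after birth: 8 of 267 and 9 of 110 wells at E18 with 1.13 and 1.44 UMIs each, against 31.0% and 33.2% at P4 with 2.72 and 2.91 UMIs, and 42.9% and 36.4% at P7 with 4.24 and 3.36 UMIs. At an equal depth of 5000 UMIs a well, the Htr4 shares were 1.56% and 4.25% at E18 and 13.9% and 15.8% at P4. The UMIs per positive well were not set to an equal depth. The median kept well held 9147 and 8870 UMIs at E18 and 19821 and 20509.5 at P4, and the part of depth in the UMIs per positive well was not tested.

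Htr7, also coupled to Gs, climbed more gradually. Its level was 0.193 and 0.204 CPM at E11, 0.842 at E12, 1.14 and 0 at E13, 1.09 and 2.38 at E15, and 2.00 and 6.78 at E18. It was 11.4 and 14.1 CPM at P4, 22.3 and 21.3 at P7, then 9.23 and 10.5 on the adult plates. Among the series plates, the P7 plates were the highest, the adult plates lay below both P4 plates, and all 6 lay above the embryonic plates. Htr7 rose from E11 to P7 by 6.61 ± 0.84 (log2, SE; edgeR adjusted p = 0.000272), with 2 UMIs at E11 against 294 at P7, a ratio of 110 with a counting interval from 30.2 to 913. The step from E18 to P4, 1.86 ± 0.65, did not pass (edgeR adjusted p = 0.0659), nor did that from P7 to adult, -1.23 ± 0.59 (adjusted p = 0.268), which was -0.98 in Pou4f1-positive wells alone (adjusted p = 0.398). Without E18 plate 2 the step to P4 was 3.03 (edgeR adjusted p = 0.00947). Htr6, the remaining Gs-coupled receptor, had 7 UMIs over the series and 14 in the other set, at most 1.18 CPM on a plate, and was not tested in either.

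The calls from E18 to P4 rested on few plates, and the E18 plates differed in makeup. On E18 plate 1 the 10 neuron markers summed to 3144 CPM and the progenitor list to 3306 CPM, while on E18 plate 2 they summed to 7505 and 163 CPM and on the P4 plates the neuron list summed to 6557 and 6565 CPM. Without E18 plate 1 all 3 calls were lost, with differences of 2.30 for Htr4 (edgeR adjusted p = 0.156), 2.88 for Htr5a (0.0768) and an adjusted p of 0.0502 for Htr5b. Htr5b had 0 UMIs on the remaining E18 plate, where 3 counts would be 2.26 CPM, so its fitted difference there is not given. Without P4 plate 2 all 3 were lost too (adjusted p = 0.126, 0.0676 and 0.0603), and without P4 plate 1 that of Htr4 was lost (adjusted p = 0.0856). In each of these runs fewer of all genes passed as well, so the losses were not particular to the receptors. Restricted to wells with a Pou4f1 UMI, all 3 passed, at 2.93 for Htr4 (edgeR adjusted p = 0.0336), 2.58 for Htr5a (0.0327) and 4.89 for Htr5b (0.0177). Sequencing runs held 5 plates each, per the labels' protocols, and which plates ran together is not given, so run and stage cannot be told apart.

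**Figure D2:**
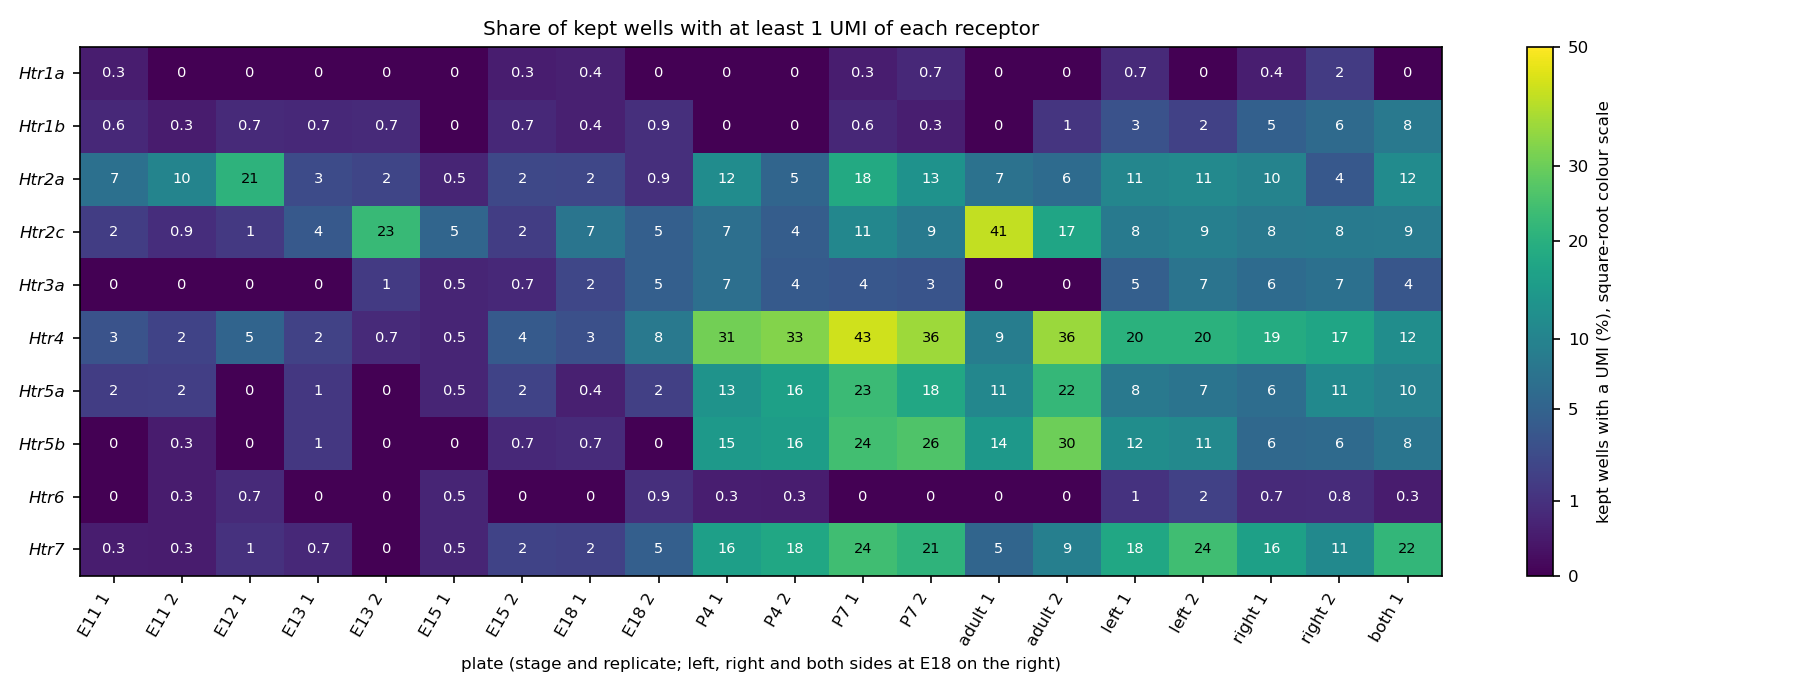
Share of kept wells, in percent, with at least 1 UMI of each receptor (rows) on each plate (columns, developmental series then the C57BL/6 plates at E18); colour follows the square root of the share, and shares under 1% are given to 1 decimal. Htr4 reached 42.9% of wells on P7 plate 1, Htr2c 41.1% on adult plate 1, and Htr1a and Htr6 were in at most 1.85% of wells on any plate.

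At E18 the 2 sets of plates gave different receptor levels. Htr4 was at 3.59 and 9.80 CPM on the series plates and at 26.0 and 27.6 on the left plates, 23.5 and 15.6 on the right plates and 20.2 where both sides were together. Htr7 was at 2.00 and 6.78 CPM against 16.6, 23.3, 14.8, 10.1 and 28.1, and Htr5b at 0.798 and 0 against 9.80, 6.49, 4.34, 8.36 and 11.2 in the same order. Htr5a was at 0.798 and 1.51 CPM against 4.90, 4.33, 3.98, 6.92 and 6.22. Each of these receptors lay lower on the series plates at E18 than on all 5 plates of the other set. The share of all genes that separate in this way was not counted, so the separation is not read as particular to the receptors. The plates of the other set overlapped the P4, P7 and adult range of the series for Htr7. For Htr4 they did so only through adult plate 1, at 14.5 CPM with 56 kept wells. They lay below the other P4, P7 and adult plates, which had Htr4 at 41.1 to 88.7 CPM. Htr3a overlapped between the sets, at 2.79 and 6.78 CPM against 2.89 to 6.92. The sets differ in mouse line, in table and in depth, with a median of 9147 and 8870 UMIs a well on the series plates at E18 and of 17093 to 28407 in the other set, so no test was made between them.

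No receptor passed the test between left and right habenula. Of the 10, 8 passed the filter and 0 were called, with 0 at an unadjusted p under 0.05, where 0% of 15489 genes were called by edgeR (182 at an unadjusted p under 0.05). DESeq2 called 1 gene, which was no receptor. The right-minus-left log2 differences were 0.81 ± 0.63 for Htr1b, 0.64 ± 0.58 for Htr3a, 0.20 ± 0.55 for Htr2c and 0.18 ± 0.57 for Htr5a. They were -0.65 ± 0.35 for Htr7, -0.64 ± 0.61 for Htr2a, -0.45 ± 0.50 for Htr5b and -0.45 ± 0.29 for Htr4. With 2 plates a side, errors of this size do not show that the sides were alike. The erythroid level given above also differed between the sides, and its part in these values was not tested.

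The receptors differed in how much of their signal was unspliced. Of the series UMIs, 86.6% were unspliced for Htr4, 61.9% for Htr2c, 53.8% for Htr2a and 33.2% for Htr7, against 4.76% for Htr3a, 1.32% for Htr5b, 0.634% for Htr5a and 0% for Htr1a and Htr1b. The left and right set gave the same order among these 7, with 91.0% for Htr4, 79.0% for Htr2c, 61.4% for Htr2a, 31.8% for Htr7, 4.08% for Htr3a, 2.03% for Htr5b and 0% for Htr5a. Over all genes, from 17.7% to 26.4% of UMIs were unspliced on a series plate. Htr1a and Htr1b had only 9 and 20 UMIs in the series. Gene structure is the same in both sets, so the shared order is no separate support, and the part of introns and gene length in these shares was not tested. For Htr4 the unspliced share was 86.1% of 553 UMIs at P4, 85.9% of 952 at P7 and 87.3% of 457 in the adult, and at least 87.0% at each embryonic stage, where at most 30 UMIs were seen. In the spliced table alone, Htr4 rose from E18 to P4 by 4.48 (edgeR adjusted p = 0.0476) and Htr7 by 3.45 (adjusted p = 0.0229). The E18 plates held only 1 spliced UMI of Htr4 and 3 of Htr7, against 77 and 106 at P4. The sizes of these 2 changes are therefore uncertain.

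**Figure D3:**
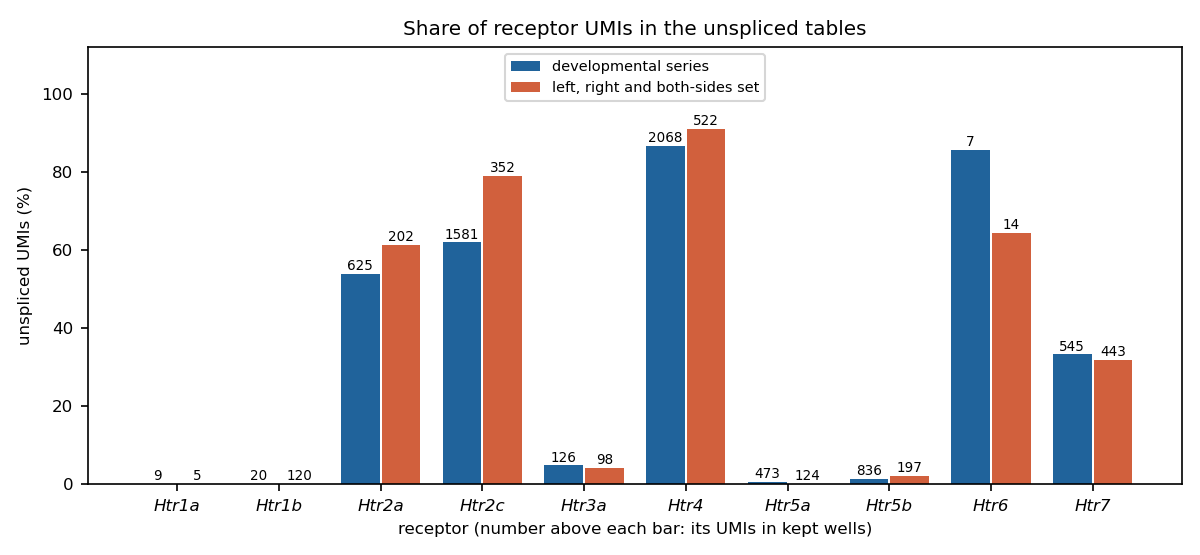
Share of each receptor's UMIs that lay in the unspliced tables, in percent, in the developmental series (blue) and in the C57BL/6 plates at E18 (orange), with the number of UMIs in kept wells above each bar. Htr4 was mostly unspliced in both sets (86.6% and 91.0%), while Htr3a, Htr5a and Htr5b were nearly all spliced.

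Many wells of the later series plates and of the C57BL/6 set held more than 1 kind of receptor. At least 2 receptors were seen in 28.6% and 24.2% of wells at P4, 46.3% and 39.1% at P7, and 21.4% and 40.4% on the adult plates, in at most 3.78% of wells on any embryonic series plate, and in 17.3% to 24.1% on the C57BL/6 plates at E18. Wells with 2 or more were deeper than wells with none, for example 28839 against 14129 UMIs at the median on P7 plate 1, so shares were compared at 5000 UMIs a well. Up to 6 receptors were seen in a well, on both P7 plates and on right plate 1 of the C57BL/6 set. Without a correction for depth, Htr4 and Htr5b shared 239 series wells, which were 37.5% of the Htr4 wells and 65.1% of the Htr5b wells. Htr4 and Htr5a shared 142 wells (22.3% and 43.8%), Htr4 and Htr7 95 wells (14.9% and 31.6%), and Htr5b and Htr3a only 2 wells (0.545% and 2.86%).

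At equal depth, Htr5b was seen more often in wells with Htr4 than in wells without. The shares with and without Htr4 were 9.58% and 4.73% on P4 plate 1, 11.3% and 5.14% on P4 plate 2, 15.1% and 6.73% on P7 plate 1, 23.5% and 10.2% on P7 plate 2, and 37.9% and 13.5% on adult plate 2. They were 2.24% and 0.247% on E15 plate 2, and Htr5b was at 0 in both on the E12 plate. The share was thus higher with Htr4 on 6 of 7 plates and equal on the other, by a mean of 8.45 percentage points ± 8.27 (SD, n = 7 plates; two-sided exact permutation test, p = 0.03125). Of all genes put to the same test, 4.49% had an unadjusted p under 0.05 with a higher share and 10.6% with a lower share in Htr4 wells. After adjustment over the 21 receptor pairs tested, none passed, and the smallest adjusted p was 0.219 (exact permutation test, Benjamini-Hochberg). With 5 to 8 plates a pair, the smallest p that this test can give was 0.0625 to 0.0078. No pair could therefore pass on its own, and the absence of a call says nothing about the pairs. For this pair and those that follow, wells were not split by cell type. Pou4f1 was in 52.6% of kept wells on adult plate 2 and in 88.1% to 92.0% on the P4 and P7 plates. The part of cell makeup in these shares was not tested.

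Htr7 leaned the other way. Its shares with and without Htr4 were 2.83% and 5.98% on P4 plate 1, 2.77% and 6.88% on P4 plate 2, 4.56% and 9.48% on P7 plate 1, 4.05% and 9.27% on P7 plate 2, and 2.89% and 3.82% on adult plate 2. It was lower with Htr4 on 6 of 7 plates, by a mean of 2.73 percentage points ± 2.14 (SD, n = 7 plates; exact permutation p = 0.03125, not passing after adjustment). Htr2c was lower with Htr4 on 7 of 7 plates (exact permutation p = 0.0156, the smallest that 7 plates can give), by a mean of 1.17 percentage points ± 1.07. Without thinning, Htr2c was instead higher with Htr4 by 0.554 percentage points. Htr5a did not differ beyond its spread, at 3.98% with and 4.42% without Htr4 (means of 7 plates; exact permutation p = 0.250).

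**Figure D4:**
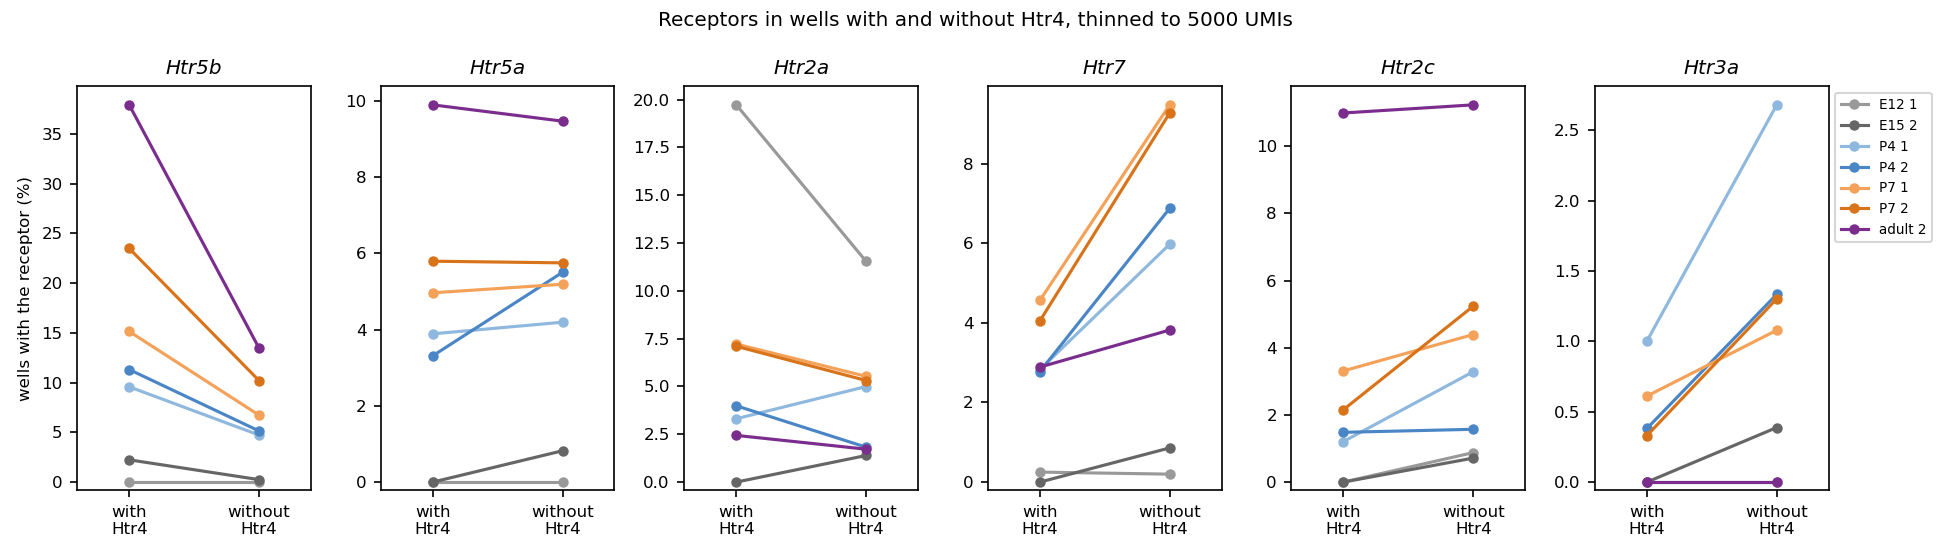
Share of wells with each of 6 receptors, in percent, among wells with and wells without an Htr4 UMI, at an expected depth of 5000 UMIs a well. Only kept wells with at least 5000 UMIs were used. Each line is 1 plate with at least 10 Htr4-positive wells among them, and each panel has its own vertical scale. Lines for Htr5b fall from left to right on 6 of 7 plates, and lines for Htr7 rise on 6 of 7.

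Htr7 was in 24.7% of the Htr2a wells and 7.39% of the others on P7 plate 1, and in 13.9% and 3.40% on adult plate 2, but in 3.75% and 6.28% on P4 plate 2. Over 8 plates the Htr7 share was higher with Htr2a on 4 and lower on 4, by a mean of 3.72 percentage points ± 6.82 (SD, n = 8 plates; exact permutation p = 0.1875). Htr2c was in 40.9% of the Htr2a wells and 10.6% of the others on adult plate 2, and the pair differed by a mean of 4.72 percentage points ± 10.4 (SD, n = 8 plates; exact permutation p = 0.0547). Without adult plate 2 that mean was 1.07 percentage points. Of all genes, 4.01% were higher and 11.1% lower in Htr2a wells at an unadjusted p under 0.05. Htr3a was in 1.58% of the Htr2c wells and 0.953% of the others (means of 8 plates; exact permutation p = 0.250), where 2.53% of all genes were higher and 6.54% lower in Htr2c wells at an unadjusted p under 0.05. Htr3a was in no Htr5b well on P4 plate 1, P7 plate 1 and P7 plate 2 and in 0.136% of them on P4 plate 2, against 1.07% to 2.59% of the other wells of those plates. In the left and right set, Htr4 and Htr5b shared 43 wells (23.2% of the Htr4 wells, 48.3% of the Htr5b wells). There Htr1b and Htr7 shared 27 wells (46.6% of the Htr1b wells, 13.8% of the Htr7 wells), and Htr1b and Htr5b shared 0.

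Receptor wells were also set against Pou4f1, the transcription factor that marks habenula neurons. At 5000 UMIs a well, Htr4 was in 9.28% of wells with and 5.44% of wells without Pou4f1 (means of 14 plates), a difference of 3.85 percentage points ± 5.12 (SD), higher on 12 of 14 plates. It passed (exact permutation test, p = 0.00378, Benjamini-Hochberg adjusted over 18882 genes 0.0225). Htr5a was in 3.16% and 1.80%, higher on 11 of 14 plates, and passed as well (exact permutation p = 0.00439, adjusted 0.0245). So 2 of the 7 receptors tested passed, both higher, where 23.8% of the 18882 genes passed, 11.1% higher and 12.7% lower. The share of Htr4 was the other way round on E18 plate 1, at 0.180% with and 2.00% without Pou4f1, and on E13 plate 2. Htr5b differed by 2.01 percentage points (exact permutation p = 0.0566, adjusted 0.153), Htr2a by 1.38 (adjusted 0.200), Htr7 by 1.12 (adjusted 0.201), Htr3a by 0.408 (adjusted 0.375) and Htr2c by 0.239 (adjusted 0.911). Without adult plate 2 the differences were 0.941 for Htr5b and 0.904 for Htr5a (exact permutation, adjusted 0.0446), that of Htr2c was -0.588 without adult plate 1, and it was -0.598 without wells above 3 times the plate median. Htr4 no longer passed at 2000 UMIs a well (1.18 percentage points, exact permutation adjusted p = 0.0568).

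The wells of different receptors carried different habenula markers, given here as levels with no test and with markers chosen after their values were seen, for plates with at least 10 positive wells. Gpr151, an orphan receptor of habenula neurons, was higher in Htr5b wells on every such plate: 422 against 107 CPM and 310 against 94.2 CPM at P4, 654 against 149 and 690 against 154 at P7, 1243 against 344 on adult plate 2, and 330 against 38.1 and 289 against 34.1 on the left and right plates 1. Gpr151 was likewise higher in Htr4 wells, at 316 against 72.7 and 207 against 84.5 CPM at P4, 442 against 142 and 479 against 187 at P7, and 1144 against 351 on adult plate 2. It was higher in Htr4 wells on 5 of 5 plates of the left and right set too, by 2.88-fold to 8.00-fold. Htr3a and Htr7 wells showed the opposite at these stages. Gpr151 was at 33.0 against 173 and 40.3 against 138 CPM at P4 and at 95.7 against 303 and 27.2 against 341 at P7 in wells with and without Htr3a. In Htr7 wells it was lower on 5 of 5 P4, P7 and adult plates, from 0.246 to 0.546 times the level of the other wells, but on 2 of 5 only in the left and right set.

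**Figure D5:**
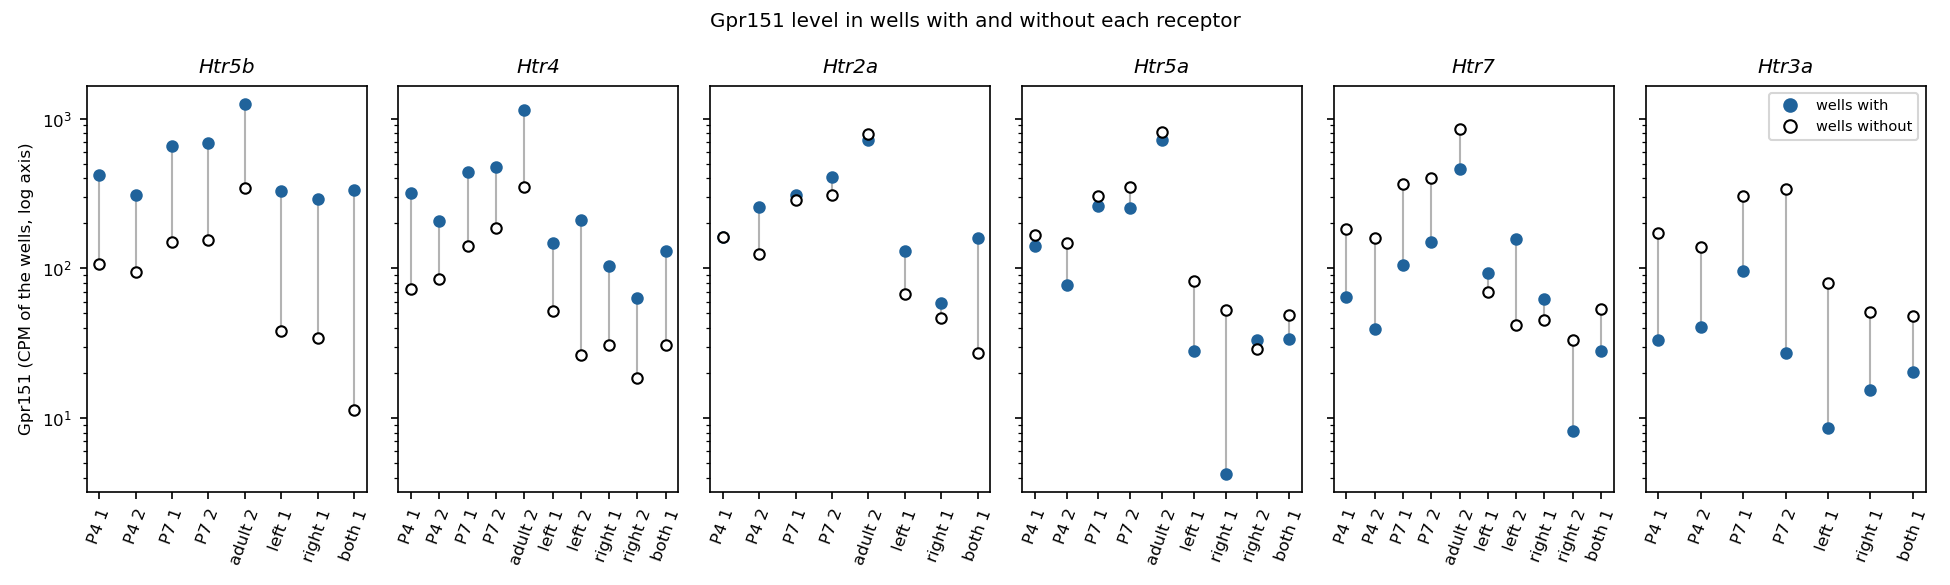
Level of Gpr151 in CPM (log axis) in wells with (filled) and without (open) each of 6 receptors, for each plate with at least 10 positive wells at P4, P7 and adult and in the C57BL/6 plates at E18. Filled points lie above open ones on all plates shown for Htr5b and Htr4 and below them on all plates shown for Htr3a.

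Htr2a wells had more Tac1, the substance P precursor of the dorsal medial habenula, and more Calb2, the calcium-binding protein calretinin, on the P4, P7 and adult plates. Tac1 was higher in Htr2a wells on 5 of 5 P4, P7 and adult plates, by 1.50-fold to 3.30-fold, and on 3 of 3 left, right and both-sides plates, by 1.57-fold to 2.84-fold. Calb2 was higher in Htr2a wells on the same 5 plates by 1.37-fold to 4.22-fold. Chat, of the same medial habenula list, was lower in Htr2a wells on 5 of 5, at 0.423 to 0.689 times the other wells. The summed medial list was higher on 5 of 5 (1.01-fold to 1.41-fold), and so was the summed lateral habenula list (1.06-fold to 1.25-fold). Tac1 was also higher in Htr7 wells on 4 of 5 of the late plates, with a median of 1.94-fold, and in Htr3a wells on 3 of 4, with a median of 1.51-fold, so a higher level was not particular to Htr2a wells. At E11 and E12, Tac1 was instead lower in Htr2a wells, at 0.694, 0.943 and 0.764 times the level of the other wells. Htr5a wells had Chat, the acetylcholine-synthesising enzyme of the ventral medial habenula, higher on 5 of 5 late plates, by 1.02-fold to 2.61-fold, while the summed medial habenula list, which holds Chat, was higher in them on 2 of 5 and lower on 3 of 5, from 0.901-fold to 1.30-fold. Htr2c wells had Tac2, the neurokinin B precursor, lower on 6 of 6, at 0.226 to 0.749 times the other wells. In them Chat was higher on 5 of 6 late plates, with a median of 1.19-fold. The summed medial habenula list was lower on 6 of 6 (0.735 to 0.949 times), and the summed lateral list higher on 6 of 6 (1.16-fold to 1.97-fold). Positive wells were deeper than negative wells, for example a median of 21807 against 7117 UMIs for Htr4 on adult plate 2, and held less of the 8 oligodendrocyte markers there (527 against 5095 CPM). The part of depth and of such wells in these levels was not tested.

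Htr1b wells of the C57BL/6 set had less Pou4f1 than the other wells. On right plate 1 and the plate of both sides, the only ones with at least 10 Htr1b wells, Pou4f1 was at 280 against 693 CPM and at 69.1 against 377 CPM. Gpr151 was at 8.07 against 52.7 CPM and at 4.06 against 51.7 CPM in Htr1b wells and others. The summed medial habenula markers were at 589 against 770 CPM on right plate 1 but at 947 against 509 CPM on the plate of both sides. Gbx2, a transcription factor of thalamic neurons, was at 119 against 11.8 CPM on right plate 1 and at 363 against 41.9 CPM on the plate of both sides. Gbx2 was also higher in Htr7 wells on the plate of both sides, at 209 against 27.6 CPM, where 73 wells held Htr7. On the P4 and P7 plates Gbx2 was at 0 in every well, those with Htr7 included.

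The signalling partners were counted from lists chosen with earlier results of these data known. From E18 to P4, 5 of 12 genes of the Gi and Go list rose and 1 fell in edgeR, where 9.2% of all genes tested rose and 10.4% fell. Rgs4 and Rgs10, which speed the switching off of G proteins, changed by 4.72 (adjusted p = 0.00376) and 2.30 (adjusted p = 0.00819), and Gnai2, a Gi subunit, by -1.81 (adjusted p = 0.0114). Of 10 genes of the Gs list, 4 rose and none fell, among them Prkar1a, a regulatory subunit of protein kinase A, at 1.02 (edgeR adjusted p = 0.0295), its catalytic subunit Prkacb at 1.23 (0.0380) and Gnal, a stimulatory subunit, at 2.33 (0.0399). Of 9 genes of the Gq list only Plcb1, a phospholipase C, passed, and it fell by 3.09 (edgeR adjusted p = 0.00686). Of 6 receptor interactors 1 passed: S100a10, known to bind Htr1b and Htr4 proteins, fell by 2.55 (edgeR adjusted p = 0.0302). For the Gq list and the interactors, that is no more than the 19.6% of all genes that changed. The Gi and Go members that were called but are not named lost their calls in 4, 8 and 12 of the alternative settings, so the count of 5 was not stable. Of the genes named here, Rgs4 kept its call with any E18 or P4 plate left out. Without P4 plate 2 the others lost theirs, with edgeR adjusted p from 0.0511 for Rgs10 to 0.206 for S100a10, and without E18 plate 1 all but Rgs4 and Plcb1 did, up to 0.324 for S100a10. Without P4 plate 1 only Rgs4 and Rgs10 of these kept their call, and with only the 4 plates compared Rgs4 alone did (edgeR adjusted p of the others from 0.0732 for Rgs10 to 0.231 for Prkar1a). Those of S100a10 in Pou4f1-positive wells alone (0.0752), Gnal in the spliced table (0.0549) and Prkacb in all wells or in wells with at least 2000 UMIs (0.0507 in each) ended too. The medians of these lists were 1.35 for Gi and Go, 0.81 for Gs, -0.03 for Gq and 0.54 for the interactors, beside -0.07 over all genes.

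Of 11 genes that make, move or break down serotonin, 7 were tested, and none passed from E18 to P4. From E11 to P7, 3 of the 7 passed, where 28.6% of all genes did: the monoamine oxidases Maoa and Maob rose by 0.94 (edgeR adjusted p = 0.0293) and 2.24 (adjusted p = 0.0445), and Slc18a2, the vesicular monoamine transporter, fell by 3.60 (adjusted p = 0.00423). Between E11 and E13, where 1.45% of all genes passed, 1 of the 7 did, as Slc18a2 fell by 3.59 (edgeR adjusted p = 0.0493). From P7 to adult, where 3.58% of all genes passed, 2 of the 7 did: Ddc, the decarboxylase that makes serotonin, rose by 2.71 (edgeR adjusted p = 0.0485) and Slc29a4, a low-affinity monoamine transporter, fell by 2.17 (adjusted p = 0.0179). Leaving out single plates ended these calls: those of Maoa, Maob, Slc29a4 and the early fall of Slc18a2 were lost without any 1 of the plates compared (edgeR adjusted p from 0.0526 for Slc18a2 without E13 plate 1 to 0.379 without E13 plate 2). That of Ddc was lost without adult plate 1 (edgeR adjusted p = 0.278) or either P7 plate (up to 0.308), and that of Slc18a2 from E11 to P7 without P7 plate 2 (0.0578). That of Ddc also ended in the spliced table, in wells with at least 2000 UMIs, without wells above 3 times the plate median and with the replicate number as a block (edgeR adjusted p of 0.0503 to 0.0632). That of Maob ended in all wells, in Pou4f1-positive wells alone, in wells with at least 2000 UMIs and with the block (edgeR adjusted p of 0.0508 to 0.0750). The early fall of Slc18a2 ended with DESeq2 size factors, in the spliced table and with the block (edgeR adjusted p of 0.0507 to 0.0755). In Pou4f1-positive wells alone, given the makeup of the adult plates above, Ddc changed by 2.72 (edgeR adjusted p = 0.0365) and Slc29a4 by -2.48 (0.00212). Of 4 other serotonin receptors (Htr1d, Htr1f, Htr2b and Htr3b) only Htr1f was tested, and it was never called.

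Across the 15 series plates, the receptors with at least 100 UMIs were matched with 10814 genes by Pearson's r of log2(CPM + 1), a description over plates that share stages, with no test. The genes closest to Htr4 were Fam217b (0.98), Smim13 (0.98) and Thsd7b (0.98), to Htr5b Cpne9 (0.98), Hagh (0.98) and Ndrg3 (0.98), and to Htr5a Nppa (0.97), Ppp1r1b (0.97) and Sec62 (0.97). Those closest to Htr7 were Ddhd1, Slc2a3 and Syt3, each at 0.98. Htr3a was closest to Zdhhc21 (0.91), Htr2a to Msrb1 (0.91) and Htr2c to Slc12a2 (0.93), the Na-K-Cl cotransporter. Among the receptors themselves r was 0.96 for Htr5a and Htr5b, 0.93 for Htr4 and Htr7 and 0.90 for Htr4 and Htr5b, while Htr2c with Htr4 gave 0.23 and Htr2a with Htr3a -0.21.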

How the data were processed

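Single cells were measured by Cel-seq2, with 384 wells a plate and UMIs of 6 bases, per the labels' protocols. Reads were mapped with STAR 2.5.3a to mm10, per the submitters' processing notes; for the annotation and the strand setting of counting, nothing was given in the sources used. The deposited tables of total, spliced and unspliced transcripts hold expected counts, which the authors corrected for UMI collisions: 100% of values gave a whole UMI number (tolerance 1e-06) when the correction for 4096 possible UMIs was inverted. Wells with at least 1000 UMIs, 500 genes and at most 20% mitochondrial UMIs were kept, with spike-ins left out. No doublet caller was run, and leaving out wells above 3 times their plate's median was tried instead. Levels are CPM over all kept wells of a plate.

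Expected counts were summed per plate, rounded, and tested with edgeR 4.0.16 (quasi-likelihood, TMM, filterByExpr) in R 4.3.3 on the 14 plates of the 7 stages with 2 plates, and on the 4 left and right plates. The SE given with an edgeR log2 difference is its absolute size divided by the square root of the test's F statistic. It is approximate, above all where 1 side is near 0 UMIs. Benjamini-Hochberg adjustment ran over all genes, with a threshold of 0.05. DESeq2 1.42.0 was an alternative. Shares of wells were compared within plates at an expected depth of 5000 UMIs (exact hypergeometric thinning) by two-sided exact permutation tests over plates, in Python 3.11.15 with scipy 1.17.1. Only kept wells with at least that many UMIs entered these comparisons: 3195 of 3729 in the series, and 29 of 56 on adult plate 1. The Pou4f1 test was planned with adjustment over the receptors and is given adjusted over all 18882 genes with at least 30 positive kept wells. Counting intervals are exact at 95%, and they and the limit of 3 counts for a count of 0 cover counting error only. All receptors are named, of the other lists at most the 3 members with the smallest adjusted p in a comparison, and for likeness the 3 genes of highest r with a mean of at least 10 CPM. The members, lists and tests were chosen with earlier results of these data known. The methods were tested on simulated data.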

Additional observations from a re-analysis of the deposited data

How the results depend on the processing

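The number of receptors called from E11 to P7 was 5, and 4 to 5 with any of the E11 or P7 plates left out. It was 6, with Htr2c added, under DESeq2, with no filter on low counts, in the spliced table, in Pou4f1-positive wells, without wells above 3 times the plate median, without choroid wells (chosen after seeing the data) and with only the 4 plates compared. From E18 to P4 it was 3, and 0 when only the 4 plates compared were fitted (edgeR adjusted p = 0.0649 for Htr4, 0.0568 for Htr5a and 0.0518 for Htr5b), and 0 to 4 with a plate left out. It was 4 under DESeq2, with no filter and in the spliced table, with Htr7 added, and 4 in Pou4f1-positive wells, with Htr2a added. From E11 to E13 it was 0, with 1 under DESeq2, 1 with no filter on low counts and 0 to 1 with a plate left out. From E13 to E15 it was 0, and 2 with no filter. From P4 to P7 it was 0, with 1 with no filter and 2 with only the 4 plates compared. Calls over all genes moved as well: from P4 to P7 they were 1 of 17453, 136 of 37590 with no filter and 541 of 14871 with only the 4 plates, from E13 to E15 16 and, with no filter, 1249, and from P7 to adult 625, 1411 under DESeq2 and 1766 with no filter. From E11 to E13 they were 253, 932 under DESeq2 and 1715 with no filter, from E18 to P4 3421 and, with only the 4 plates, 528 of 14765, and from E11 to P7 4995 and, with only the 4 plates, 9556 of 15114. From E18 to P4 they were 4086 of 17453 under DESeq2, 4820 of 37590 with no filter, 3307 of 15847 in the spliced table and 3337 of 16353 in Pou4f1-positive wells. The same settings gave 5549, 5380, 4829 and 5722 from E11 to P7. That span had 4883 of 17035 without wells above 3 times the plate median and 5086 of 17398 without choroid wells. From P7 to adult the number of receptors called was 0, with 2 with no filter (Htr2c and Htr3a) and 0 to 1 with a plate left out. It was 1, Htr2c each time, under DESeq2, in Pou4f1-positive wells only (602 of 16353 genes) and without choroid wells (600 of 17398 genes). The count of receptors called was 0 under every alternative run from E15 to E18 and from left to right. The E11, P7 and adult plates held 0 choroid wells, so leaving such wells out removed none from the comparisons of E11 with P7 and of P7 with adult. Calls over all genes moved with a plate left out too: down in every such run from E11 to P7, and down from E18 to P4 except without E18 plate 2. The cause of these moves was not tested, except that fewer plates were fitted where a plate was left out.

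In Pou4f1 wells, 2 receptors passed (4491 of 18882 genes), 2 with any plate left out, 1 at 2000 UMIs a well (4097 genes), 6 without thinning (13261 genes) and 0 on the 6 P4, P7 and adult plates (0 genes), where the smallest p possible is 0.03125. No receptor pair passed under any alternative run, but in the main run the plates were too few for a pair to pass on its own. The difference in the Htr2c share by Htr4 turned to 0.554 percentage points without thinning, and that of Htr3a by Htr4 to 0.00832 at 2000 UMIs.

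Plates of the same number did not deviate together: over 21 pairs of stages the correlation of their deviations ran from -0.508 to 0.444, with 7 above 0.1. With the replicate number as a block, 3 receptors were called from E18 to P4, 5 from E11 to P7 and 0 over each other step, as without it. Over all 17453 genes, 2916 and 4693 passed with the block from E18 to P4 and from E11 to P7, against 3421 and 4995 without it. For left and right there was only 1 correlation (0.279), and the block left 0 receptors called. Over all 15489 genes it gave 6 calls against 0 without it, and 402 against 182 genes at an unadjusted p under 0.05. Whether left and right plates of the same number belong together cannot be told from these values.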
